A study of Arabidopsis thaliana with 4 samples.

Results

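The genes described here act in the indole branch of the defence chemistry of Arabidopsis thaliana: IGMT1, IGMT2, IGMT3, IGMT4, IGMT5, CYP81F2, MYB51, PEN2, PAD3 and CYP71A13. They were chosen by name for their place in indole glucosinolate and camalexin metabolism, with values of the same comparison of vim1,2,3 with Col already known. Their ratios between the genotypes are therefore given as a description, with no p-value, and a count of those past the rule for all genes supports nothing. The 10 loci were found through 15 array probes, out of 43603 probes and 25347 loci matched to the arrays, and all 10 were among the 20464 genes bright enough to be tested.

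Expression was measured on 4 Agilent 2-colour arrays. On each array, RNA labelled vim1,2,3 was carried by the Cy5 dye and RNA of wild-type Col by the Cy3 dye, so each array gives 1 ratio of vim1,2,3 over Col, as log2 throughout. The vim1,2,3 plants carry mutations in all 3 genes VIM1, VIM2 and VIM3, which encode proteins that bind methylated DNA and take part in keeping CG methylation. The labels name no alleles. Both genotypes were seedlings of 14 days, grown on B5-based medium under daily cycles of 16 h light and 8 h dark, and were collected 6 h into the light. The dyes were never swapped, so a dye effect specific to a probe cannot be told apart from the genotype.

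Indole glucosinolates are sulphur-rich storage compounds made from tryptophan. MYB51 switches on genes of their synthesis, CYP81F2 hydroxylates the indole ring, and the IGMT O-methyltransferases then add a methyl group to give methoxy forms. PEN2 is a myrosinase, an enzyme that cleaves such compounds during defence against fungi and bacteria. Camalexin is the main phytoalexin of Arabidopsis and is also made from tryptophan, through CYP71A13 at an early step and PAD3 at the last step.

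Median spot brightness was 949 to 1718 for vim1,2,3 and 637 to 1270.5 for Col, and 68.6% to 81.5% of vim1,2,3 spots and 75.8% to 85.2% of Col spots were well above background. VIM1, the first of the genes named by the genotype, had log2 ratios of -2.22, -2.46, -1.61 and -0.74 on arrays 1 to 4. Its mean was -1.76 ± 0.77 (SD, n = 4; limma adjusted p = 0.025), but it missed the threshold when array 1 (adjusted p = 0.0759), array 3 (0.127) or both arrays 3 and 4 (0.131) were left out. A second VIM1 probe gave -2.20, -2.56, -1.69 and -2.30, with a mean of -2.19 ± 0.37, so VIM1 was lower under the mutant label on all 4 arrays by both probes. VIM2 gave -1.42, -1.31, 1.82 and 1.11, and VIM3 gave -1.06, -1.29, 1.61 and 0.25. On arrays 3 and 4, VIM2 and VIM3 were thus not lower under the mutant label. The place of the VIM probes relative to the mutations is not known here, so vim1,2,3 stands below for the RNA labelled in this way, and counts are also given with arrays 3 and 4 left out.

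The 4 IGMT genes of one tandem run and MYB51 lay above 0 on every array, and 8 of the 10 genes did so. Of all tested genes, 18.5% lay above 0 and 22.5% below 0 on all 4 arrays. A gene was called higher or lower where its limma adjusted p was under 0.05 and its change at least 2-fold. In the higher direction 5 of the 10 were past this rule (IGMT1, IGMT2, IGMT3, IGMT4 and MYB51), and 0 in the lower one. Over all genes tested 3.25% were past it higher, 2.16% lower and 5.41% in either direction. Because the genes were chosen with this contrast known, nothing is read from that count. It was 3 without array 1, 6 without array 2, 0 without array 3, 2 without array 4 and 0 with arrays 3 and 4 both left out. With both left out, the calls of all 12 other genes tested and named as called here were lost too.

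**Figure D1:**
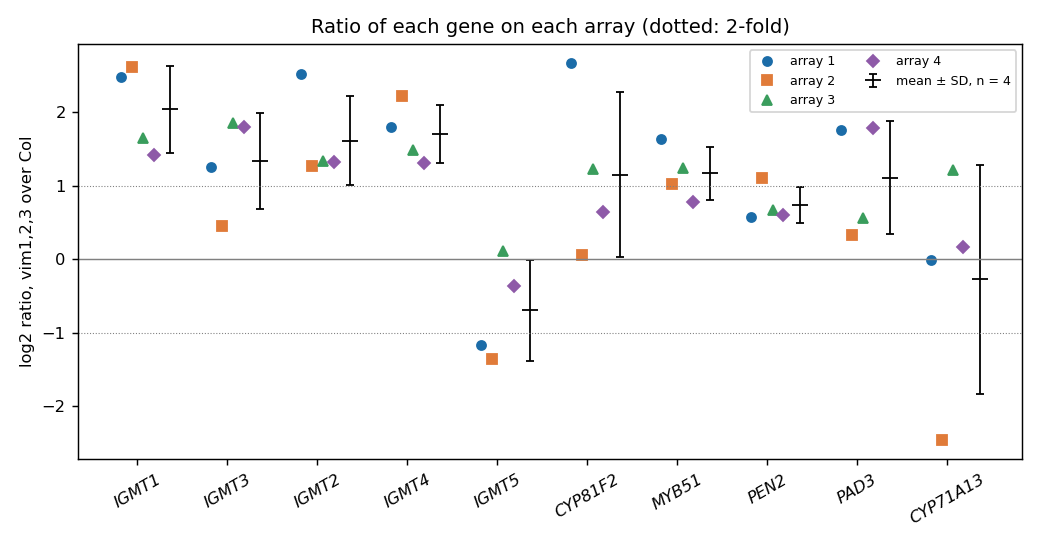
Log2 ratio of vim1,2,3 over Col for each of the 10 genes, 1 symbol per array, with the mean ± SD (n = 4) beside the symbols and dotted lines at 2-fold. IGMT1, IGMT2 and IGMT4 lie above 2-fold on all 4 arrays, while CYP71A13 runs from -2.47 to 1.22 and IGMT5 has a mean of -0.70.

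MYB51, a transcription factor that activates indole glucosinolate genes, had log2 ratios of 1.63, 1.02, 1.24 and 0.78 on arrays 1 to 4. Its mean was 1.17 ± 0.36, a 2.25-fold higher signal in RNA labelled vim1,2,3 (SD, n = 4). Array 4 gave the lowest ratio and array 1 the highest, and all lay on the same side of 0. On the scale of normalised log2 intensity, its level was 11.62, 11.06, 12.63 and 12.40 in vim1,2,3, against 9.99, 10.04, 11.39 and 11.62 in Col. The levels of the 2 genotypes overlapped across arrays, since Col on array 4 was about as bright as vim1,2,3 on array 1.

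CYP81F2, the cytochrome P450 that hydroxylates the indole ring ahead of methylation, was less even. Its ratios were 2.67, 0.058, 1.22 and 0.64, with a mean of 1.15 ± 1.12 (SD, n = 4). Array 1 gave the highest ratio and array 2 gave almost none. The level was 12.01, 10.33, 12.89 and 12.61 in vim1,2,3, against 9.34, 10.27, 11.67 and 11.97 in Col, and the 2 sets overlapped.

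IGMT1 and IGMT2 encode enzymes that methylate hydroxylated indole glucosinolates, and IGMT3 and IGMT4 are their close paralogues. In gene order the 4 genes are consecutive: IGMT1 (AT1G21100), IGMT3 (AT1G21110), IGMT2 (AT1G21120) and IGMT4 (AT1G21130). Their sequences are much alike, so a probe of one may also bind RNA of another, and this was not tested because probe sequences were not used here. The ratios below are therefore those of probes assigned to each gene.

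IGMT1 had ratios of 2.47, 2.61, 1.65 and 1.42, with a mean of 2.04 ± 0.59 or 4.11-fold (SD, n = 4). Of tested genes 1.03% had a higher mean, a rank from which nothing is read because the gene was chosen with this contrast known. By this probe, its level was 13.08, 12.98, 13.60 and 13.62 in vim1,2,3, against 10.60, 10.37, 11.94 and 12.21 in Col. Every vim1,2,3 value of this probe was above every Col value. The SD of these levels was 0.34 in vim1,2,3 and 0.93 in Col. A second, dimmer IGMT1 probe gave 2.28, 0.66, 1.72 and 1.51. It followed the first within 0.19 on arrays 1, 3 and 4 and was 1.95 lower on array 2, where its raw signals were 316.5 in vim1,2,3 and 106 in Col. The levels of this second probe overlapped, at 9.99, 8.20, 11.09 and 11.23 in vim1,2,3, against 7.71, 7.54, 9.37 and 9.72 in Col. Their SD was 1.40 in vim1,2,3 and 1.12 in Col.

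IGMT4 was measured by 3 probes. The one used, the brightest, gave 1.80, 2.22, 1.49 and 1.31, with a mean of 1.70 ± 0.40 or 3.26-fold (SD, n = 4). The other probes had means of 1.91 and 1.85, and none of them differed from the first by more than 0.31 on any array. The level was 14.68, 15.50, 15.20 and 15.50 in vim1,2,3, against 12.89, 13.28, 13.71 and 14.19 in Col, with no overlap. The raw vim1,2,3 signal reached 62111 on array 3 without being flagged as saturated, and the dimmer probes gave the slightly larger means.

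IGMT2 had ratios of 2.53, 1.27, 1.34 and 1.32, with a mean of 1.61 ± 0.61 or 3.06-fold (SD, n = 4). Array 1 stood apart and the other arrays lay between 1.27 and 1.34. Its level was 11.77, 10.64, 11.40 and 11.29 in vim1,2,3, against 9.25, 9.38, 10.05 and 9.98 in Col, again with no overlap.

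IGMT3 was the dimmest of the run to measure. Its ratios were 1.25, 0.45, 1.85 and 1.80, with a mean of 1.34 ± 0.65 or 2.52-fold (SD, n = 4). The probe was well above background on 3 arrays in vim1,2,3 and on 2 in Col, so a part of its Col values lies near background. The level was 8.82, 7.61, 10.06 and 10.47 in vim1,2,3, against 7.57, 7.16, 8.21 and 8.68 in Col. The values overlapped, and the mean ratio was 2.00 with the scanner's processed signals and 2.12 with the values of the authors' series matrix.

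Taking the run as a whole, the 4 genes spanned 1.25 to 2.53 on array 1, 0.45 to 2.61 on array 2, 1.34 to 1.85 on array 3 and 1.31 to 1.80 on array 4. They were close to each other on arrays 3 and 4 and far apart on array 2. By the probe used for each gene, levels of vim1,2,3 lay above those of Col with no overlap for 4 of the 10 genes and overlapped for 6. Those 4 were IGMT1, IGMT2, IGMT4 and PEN2, and the second IGMT1 probe did overlap. Over all tested genes 6.9% had vim1,2,3 levels all above Col levels and 7.65% all below.

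**Figure D2:**
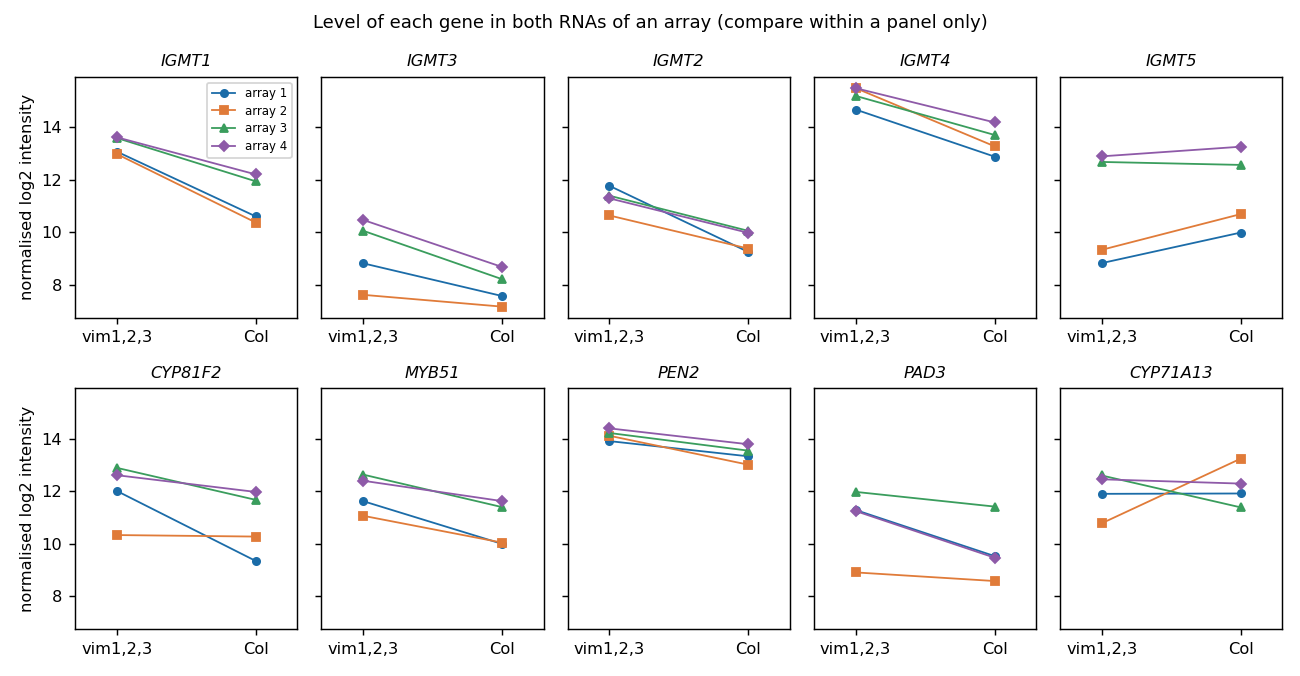
Normalised log2 intensity of each gene in RNA labelled vim1,2,3 (left) and in Col (right) of the same array, 1 line per array, to be compared within a panel only. By the probe used, IGMT1, IGMT2, IGMT4 and PEN2 have no overlap between genotypes (the second IGMT1 probe, not shown, overlaps). IGMT5 splits by array in both, from 8.82 to 12.90 in vim1,2,3 and from 9.99 to 13.26 in Col.

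The loci that flank the run did not share its ratios. On one side AT1G21090 had a mean of -0.25, AT1G21080 of 0.036 and AT1G21070 of -0.50. On the other side AT1G21140 had -0.13, AT1G21150 -0.60 and AT1G21160 -0.32. None of the 6 was called by limma, with AT1G21070 closest at an adjusted p of 0.0617. Around the other 6 genes, the tested neighbours were AT5G57210 (-0.47) and AT5G57230 (0.13) beside CYP81F2, GAUT11 (-0.55) beside MYB51, BGLU17 (-0.42) and AT2G44500 (0.55) beside PEN2, and PES2 (-0.060) beside PAD3. Of 18 neighbouring loci 12 were tested, 4 were too dim and 2 had no matched probe. None of the 12 was called, and 0 above and 3 below 0 had an unadjusted limma p under 0.05. Of all tested genes, 15.2% lay above and 18.3% below 0 at that unadjusted p, and the counts at an unadjusted p given below are to be read against these shares.

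**Figure D3:**
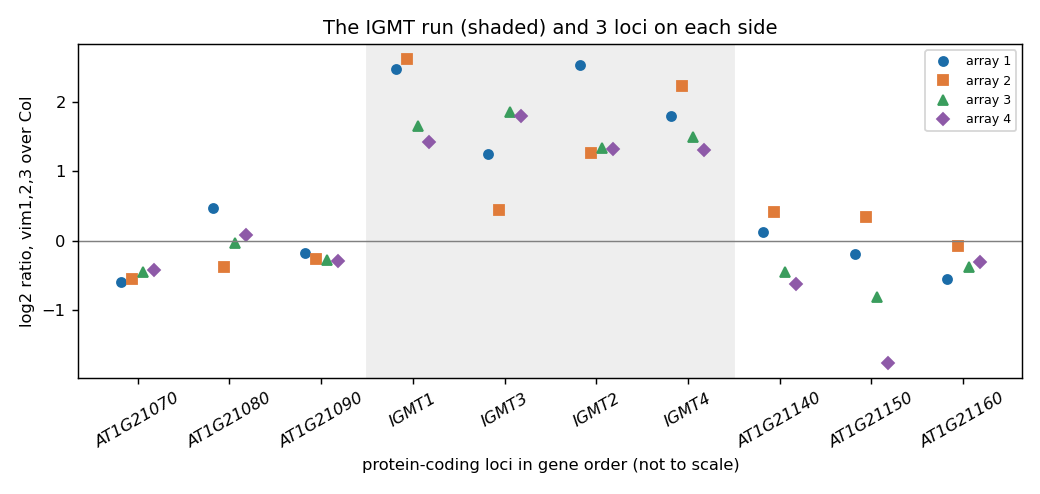
Log2 ratio of vim1,2,3 over Col on each array for IGMT1, IGMT3, IGMT2 and IGMT4 (shaded) and 3 protein-coding loci on each side, in gene order and not to scale. The 4 shaded genes lie between 0.45 and 2.61, and the means of the flanking loci lie between -0.60 and 0.036.

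IGMT5 lies apart from the run and forms the methoxy group on the indole nitrogen. Its ratios were -1.17, -1.36, 0.11 and -0.37, with a mean of -0.70 ± 0.69 (SD, n = 4). Arrays 1 and 2 were clearly below 0 and array 3 was slightly above it. A second IGMT5 probe was too dim to be tested and had a mean of 0.070. The larger differences were between arrays and not between genotypes: the level was 8.82, 9.33, 12.68 and 12.90 in vim1,2,3, against 9.99, 10.69, 12.57 and 13.26 in Col. The SD of these levels was 2.16 in vim1,2,3, and only 0.669% of tested genes had one as large, and 1.54 in Col, which 2.09% of genes reached.

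Other genes of this branch were compared on the same scale after these values had been seen. CYP81F4, a P450 needed for the same N-methoxy product, had a ratio of -0.16 ± 0.44 (SD, n = 4). Its level was 9.27, 9.13, 14.13 and 14.05 in vim1,2,3, against 10.07, 8.96, 14.02 and 14.18 in Col. PYK10, a root myrosinase, had a level of 12.08, 11.52, 15.53 and 15.66 in vim1,2,3, against 14.29, 12.81, 15.92 and 16.04 in Col. Its probe was saturated in vim1,2,3 on arrays 3 and 4, so those 2 vim1,2,3 values are lower bounds. PYK10 probes saturated on no array had ratios on arrays 3 and 4 of 0.69 and 0.41, 0.55 and 0.32, 0.44 and 0.11, and 0.24 and -0.12. On arrays 1 and 2 all of these probes lay below 0. IGMT5, CYP81F4 and PYK10 were thus brighter in both genotypes on arrays 3 and 4 than on arrays 1 and 2.

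The 3 root markers differed in how far they moved between arrays. EXPA7, a root hair expansin, was 6.79, 6.20, 9.58 and 9.15 in vim1,2,3, against 6.85, 6.51, 10.30 and 9.34 in Col, and was well above background on 2 arrays in each. COBL9, another root hair gene, was 10.22, 9.98, 10.31 and 11.43 in vim1,2,3, against 9.77, 9.49, 10.07 and 10.27 in Col. SCR, a gene of the root endodermis, was 13.17, 12.12, 12.12 and 12.23 in vim1,2,3, against 12.99, 13.30, 12.27 and 12.65 in Col. EXPA7 was brighter on arrays 3 and 4 than on arrays 1 and 2 in both genotypes, as IGMT5 was. COBL9 was too, by less, with its 4 vim1,2,3 levels within 9.98 to 11.43 and its Col levels within 9.49 to 10.27. SCR was not, and the part of root tissue in the IGMT5 levels was not tested. In RNA of whole seedlings, fewer cells of a type and less RNA per cell cannot be told apart.

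PEN2 had the most even ratios of the 10 genes, at 0.58, 1.105, 0.67 and 0.61, with a mean of 0.74 ± 0.25 or 1.67-fold (SD, n = 4). Its level was 13.91, 14.12, 14.22 and 14.40 in vim1,2,3, against 13.33, 13.01, 13.55 and 13.79 in Col. The genotypes did not overlap, although the mean stayed short of 2-fold.

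PAD3, the P450 that completes camalexin, had ratios of 1.76, 0.33, 0.56 and 1.78, with a mean of 1.11 ± 0.77 (SD, n = 4). Arrays 1 and 4 were high and arrays 2 and 3 were low, with all above 0. The level was 11.28, 8.90, 11.97 and 11.24 in vim1,2,3, against 9.52, 8.57, 11.41 and 9.46 in Col, and the sets overlapped.

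CYP71A13, which converts an oxime made from tryptophan on the way to camalexin, had ratios of -0.013, -2.47, 1.22 and 0.16. Its mean was -0.28 ± 1.56 (SD, n = 4), and 0.46 without array 2. Only 1.11% of tested genes had an SD as large. A second probe gave 0.31, -2.09, 1.53 and 0.47, so both probes showed the low array 2 and the high array 3. On array 2 the level was 10.78 in vim1,2,3, against 13.24 in Col, the highest Col value of the gene. PAD3, the later enzyme, had its own lowest levels in both genotypes on that array.

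The 10 genes had a median log2 ratio of 1.16, beside -0.052 for all genes tested. The median of their SDs between arrays was 0.629, against 0.368 for all genes. MYB51 (0.363) and PEN2 (0.245) lay below that median of all genes. The mean of 7 of them was at least 1 on the log2 scale, which 4.99% of all tested genes reached. By array, the median of the 10 was 1.70, 0.74, 1.23 and 1.04. It was highest on array 1 and lowest on array 2.

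The core and indole-specific synthesis genes upstream of the methyltransferases had a median of 0.021. None of 12 was called in either direction, and at an unadjusted limma p under 0.05 there were 2 of 12 above and 1 below 0, against 15.2% and 18.3% of all genes. GSTF10, a glutathione transferase placed in the pathway, had a ratio of 0.97 ± 0.55 (SD, n = 4; limma adjusted p = 0.0477). Its vim1,2,3 spot was saturated on array 3, so that array's ratio of 0.40 and the mean are lower bounds, and whether the gene is short of the 2-fold limit cannot be told from this probe. CYP83B1, the P450 that commits oximes to indole glucosinolates, had 0.55, 1.04, 0.46 and 0.42, with a mean of 0.62 ± 0.28 (adjusted p = 0.0602). SUR1, the C-S lyase of the core pathway, named after its values were seen, had a measured mean of -0.49. Its vim1,2,3 spot was saturated on all 4 arrays and its Col spot on 1, so these levels are only bounds. The GSTF9 and GGP1 probes used were also saturated in vim1,2,3 on all 4 arrays, with measured means of 0.42 and -0.031. Another probe of each gene, saturated on no array, had a mean of 0.86 ± 0.22 for GSTF9 and 0.11 ± 0.12 for GGP1 (SD, n = 4). The list median of 0.021 thus rests in part on saturated probes. GSTF9 and GGP1 are named after their values were seen.

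The tryptophan synthesis genes had none of 10 called, a median of 0.025, and 3 of 10 above and 0 below 0 at an unadjusted limma p under 0.05 (all genes 15.2% and 18.3%). ASA1, the first enzyme of the tryptophan branch, had 0.56 ± 0.30 (SD, n = 4; limma adjusted p = 0.0769), and PAI2 had 0.53 ± 0.37 (adjusted p = 0.105).

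Among 7 regulators of indole glucosinolates other than MYB51, 6 were tested, with a median of -0.10. Of these, 0 were called higher and 2 lower, against 3.25% and 2.16% of all genes. At an unadjusted limma p under 0.05 there were 0 above and 2 below 0 (all genes 15.2% and 18.3%). MYB34, a relative of MYB51 that activates the same pathway, fell, with ratios of -1.18, -1.13, -0.95 and -1.94 and a mean of -1.30 ± 0.44 (SD, n = 4; limma adjusted p = 0.0206). It lay below 0 on all 4 arrays, on the other side of 0 from MYB51. Leaving out array 1 (adjusted p = 0.0617), array 3 (0.0933) or array 4 (0.067) ended the call, and over all alternatives its adjusted p ran from 0.00628 to 0.359. MYC4, a jasmonate-pathway factor that works with these MYB proteins, had -0.97, -1.50, -1.28 and -0.34, with a mean of -1.02 ± 0.50 (limma adjusted p = 0.0385). That call was lost without any 1 of the arrays, at adjusted p values of 0.0613 to 0.162, and with the mean of all probes (0.106), and its adjusted p ran from 0.0197 to 0.368 over all alternatives. Another MYC4 probe had a mean of -0.44.

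Of 14 genes for hydrolysis and transport of glucosinolates 13 were tested, with a median of -0.18. Among the 13, 0 were called higher and 1 lower, against 3.25% and 2.16% of all genes. At an unadjusted limma p under 0.05 there were 3 above and 4 below 0 (all genes 15.2% and 18.3%). ESP, which steers the breakdown of glucosinolates towards nitriles, fell, with ratios of -1.26, -0.57, -1.97 and -2.67 and a mean of -1.62 ± 0.90 (SD, n = 4; limma adjusted p = 0.0371). It was no longer called when array 1 (adjusted p = 0.0864), array 3 (0.158) or array 4 (0.109) was left out, with a range of 0.0206 to 0.418 over all alternatives. The other ESP probes had means of -1.31 and -1.16. PEN3, the transporter that acts beside PEN2 in defence, had 1.94, 1.13, 0.47 and 0.01 and a mean of 0.88 ± 0.84 (adjusted p = 0.114), and is named after its values were seen.

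The other camalexin and indolic genes had a median of 0.66. Of 11 tested, 1 was called higher and 0 lower, against 3.25% and 2.16% of all genes. At an unadjusted limma p under 0.05 there were 6 of 11 above and 0 below 0, against 15.2% and 18.3% of all genes. GSTF6, a glutathione transferase used in camalexin synthesis, rose, with ratios of 3.83, 1.06, 0.96 and 2.59 and a mean of 2.11 ± 1.37 (SD, n = 4; limma adjusted p = 0.045). The vim1,2,3 spot of this probe was saturated on array 3, so 0.96 and the mean are lower bounds, and another GSTF6 probe, saturated on no array, gave 3.81, 1.29, 1.83 and 2.77, with a mean of 2.42 ± 1.11. With the first probe, GSTF6 was not called when array 1 (adjusted p = 0.0863), array 3 (0.129) or array 4 (0.152) was left out, nor from the scanner's processed signals (0.058), after scaling between arrays (0.0562) or with no filter on dim probes (0.0595). Its range over all alternatives was 0.0237 to 0.41. WRKY33, an activator of PAD3 named here after its values were seen, had 3.50, 0.43, 2.65 and 1.03 and missed the test at an adjusted p of 0.0596.

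Aliphatic glucosinolate genes, the branch made from methionine, had a median of -0.37. None of 16 tested (of 18 listed) was called, with 1 of 16 above and 5 below 0 at an unadjusted limma p under 0.05, against 15.2% and 18.3% of all genes. GSTF11 had -0.91 ± 0.34 (SD, n = 4; limma adjusted p = 0.0319) and CYP79F2, a P450 of the long-chain forms, had 0.90 ± 0.40 (adjusted p = 0.0384), both short of 2-fold. GSTF11 passed 2-fold, at -1.06 to -1.04, under median centring, from the series matrix, from the processed signals of the scanner, or without array 2.

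Of 10 other O-methyltransferase genes related to the IGMTs, 5 were bright enough to be tested and none was called, with 2 of 5 on each side of 0 at an unadjusted limma p under 0.05 (all genes 15.2% above and 18.3% below). Their median was -0.17. ASMT had -0.73 ± 0.39 (limma adjusted p = 0.0559) and AT1G33030 had 0.64 ± 0.39 (adjusted p = 0.0737; SD, n = 4 for both).

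**Figure D4:**
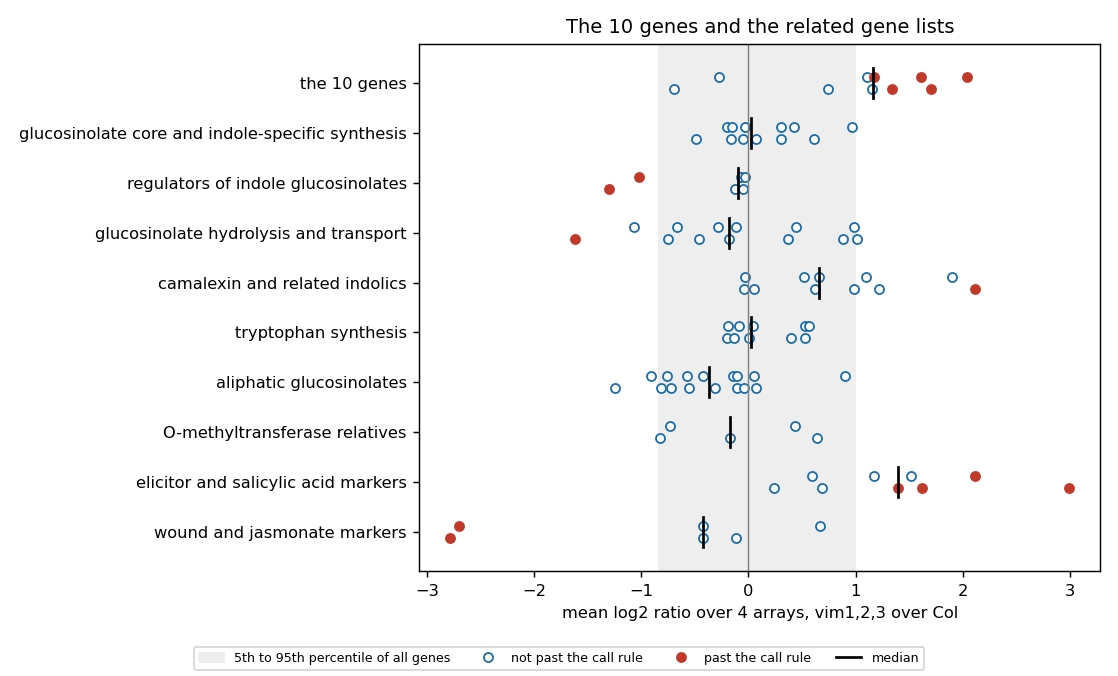
Mean log2 ratio of vim1,2,3 over Col over 4 arrays for each tested gene, by gene list, with filled symbols past the call rule, black bars at list medians and shading from the 5th to the 95th percentile of all genes (-0.84 to 1.00). The medians are 1.16 for the 10 genes, 0.66 for the other camalexin genes, 0.021 for indole synthesis and -0.37 for aliphatic glucosinolates.

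The 9 tested markers of the elicitor and salicylic acid response (of 10 listed) had a median of 1.40. At an unadjusted limma p under 0.05 there were 6 above and 0 below 0, against 15.2% and 18.3% of all genes. Of the 9, 4 were called higher and 0 lower, against 3.25% and 2.16% of all genes. The other 5 were not called, and NHL10, at 3.62, -0.92, -0.46 and 0.49, and PHI1, at 1.36 on array 1 and -2.26 on array 2, lay on both sides of 0. PR1, a secreted defence protein, rose, with ratios of 3.92, 1.69, 3.52 and 2.85 and a mean of 2.99 ± 0.98 (SD, n = 4; limma adjusted p = 0.0105). PR2 had a mean of 2.11 (adjusted p = 0.0197), ICS1 of 1.62 (0.0418) and FRK1 of 1.40 (0.026). All 4 lost their calls without array 3 and without array 4, FRK1 and ICS1 without array 1 as well, and ICS1 with scaling between arrays (0.0542) or no filter (0.0543), with adjusted p values from 0.00281 to 0.418 over all alternatives.

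By array the median of these markers was 3.11, 0.39, 0.82 and 1.67. The camalexin list had 1.82, 0.091, 0.45 and 1.03, and both list medians were highest on array 1 and lowest on array 2. The median of the 10 genes was too, but single genes differed. By the probe used for each gene, IGMT2, CYP81F2 and MYB51 were highest on array 1, and IGMT1, IGMT4 and PEN2 on array 2. The second IGMT1 probe was instead highest on array 1, at 2.28, and lowest on array 2, at 0.66. IGMT3, IGMT5 and CYP71A13 were highest on array 3 and PAD3 on array 4. Whether the elicitor and salicylic acid response has a part in the ratios of the 10 genes was not tested. The wound and jasmonate markers had a median of -0.42, with 0 of 6 called higher and 2 lower, against 3.25% and 2.16% of all genes. At an unadjusted limma p under 0.05 there were 1 above and 2 below 0 (all genes 15.2% and 18.3%). The genes called lower were VSP1 at -2.70 ± 0.95 and VSP2 at -2.78 ± 1.00 (SD, n = 4, limma adjusted p = 0.0136 and 0.0142). Leaving out array 4 ended both calls, at 0.0768 and 0.0791. The list did not fall as a whole, and its median on array 1 was 0.36. LOX2 lay above 0 on all 4 arrays, at 0.53, 0.20, 1.48 and 0.45, and was not called. AOS had a mean of -0.12, OPR3 of -0.43 and JAZ10 of -0.42, none of them called.

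**Figure D5:**
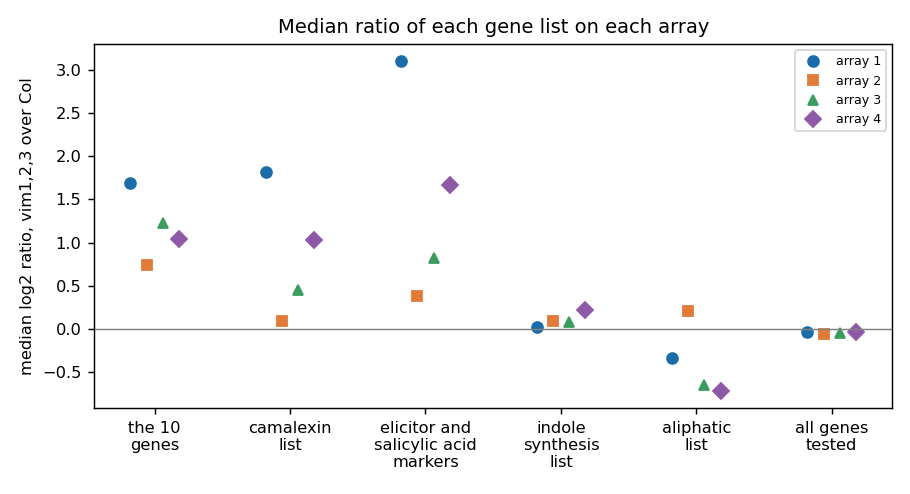
Median log2 ratio of vim1,2,3 over Col on each array for the 10 genes, 4 of the gene lists and all tested genes. The medians of the 10 genes, the camalexin list and the elicitor and salicylic acid markers are highest on array 1 (1.70, 1.82 and 3.11). They are lowest on array 2 (0.74, 0.091 and 0.39), while single genes differ.

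Markers of other tissues gave few calls. None of 3 green tissue markers was called (median -0.48, 0 above and 2 below 0 at an unadjusted limma p under 0.05), all being saturated on some array, and RCA and RBCS1A on all 4 in vim1,2,3, where the level has only a bound. The measured means of these probes were -0.64 for RBCS1A and -0.48 for RCA, and no direction is read from them. The 4 RBCS1A probes saturated on no array had means of 0.29 to 0.53, and the 8 such RCA probes of -0.13 to 0.29. The list median was 0.30 without saturated probes and 0.13 with the mean of all probes. None of 2 tested root markers was called, where COBL9 had 0.58 (adjusted p = 0.0919) and SCR -0.39 (0.3). Of 3 seed markers only OLEO1 was tested, at 0.42 and not called, and CRC and SESA1 were too dim. Of 3 pollen and petal markers 0 were called higher and 1 lower, against 3.25% and 2.16% of all genes. PI, a petal and stamen identity gene, fell by 2.20 ± 0.69 on the log2 scale (limma adjusted p = 0.0111). It was well above background on 2 arrays in vim1,2,3 and on 4 in Col, and was not called without array 3 (0.0806).

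The genes whose 4 ratios lay closest to the mean profile of IGMT1 to IGMT4 were found by the root mean square difference over 4 arrays. That mean profile was 2.01, 1.64, 1.58 and 1.46. AT4G08039 came first, at a distance of 0.12, followed by AT2G21430 at 0.15, BIP3 at 0.19, AAT1 (AT4G21120) at 0.21, AT3G03410 at 0.23 and CYP96A5 at 0.27. BIP3 encodes a chaperone of the endoplasmic reticulum and AAT1 an amino acid transporter. For comparison, IGMT4 lay at 0.32, IGMT2 at 0.35, IGMT1 at 0.54 and IGMT3 at 0.74, and MYB51 lay at 0.53. Picking genes by this distance fixes that their ratios are high and even, so no test of them is given.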

How the data were processed

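RNA of 14-day seedlings was compared on 4 Agilent 2-colour arrays of 1 slide, which the series describes as independent biological samples. Per the file headers, the images were read with Agilent Feature Extraction (10.7.3.1). Also per the file headers, the median brightness of a spot and of its surroundings is an intensity on a linear scale, and the scanner's own ratio of processed red to green is a log10 value. A matrix deposited by the authors gives log2 ratios. Left out first were 8 probes whose matrix value differed from the scanner's ratio by more than 1 on the log2 scale on any array. Across the remaining probes the matrix correlated with the scanner's ratio at 0.998 to 0.999, so its scale and direction are known. Its centring is not stated (column medians -0.09, 0.01, -0.04 and -0.03).

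The intensities were corrected with normexp (offset 50), normalized by loess within each array and not scaled between arrays (limma 3.58.1, R 4.3.3, data.table package version 1.17.8). Levels of one channel were additionally put on a common scale with limma's Aquantile. Control spots and outlier spots were left out, and 50 probes with several spots were averaged. Of 43603 probes, 34185 matched a locus of the RefSeq names of assembly TAIR10.1 by accession. The array header names an older build, so only names and gene order were used. A probe was tested where 1 channel was well above background on at least 3 arrays, and a gene took its brightest tested probe. The test was limma's lmFit and eBayes on the 4 ratios, with Benjamini-Hochberg adjustment over 20464 genes, and was tested on simulated data. The number of arrays limits the precision.

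The 10 genes, the 14 gene lists (113 further genes) and the tests were chosen with earlier results of these data known. Named besides the 10 genes were up to 4 called genes per list with the smallest adjusted p or, where none was called, the 2 with the smallest p, the neighbouring loci, the 6 genes closest to the mean IGMT1 to IGMT4 profile, and VIM1 to VIM3. The root marker list is given whole. SUR1, GSTF9, GGP1, CYP81F4, PYK10, PEN3, WRKY33, NHL10, PHI1, LOX2, AOS, OPR3, JAZ10, AP3 and VGD1 were named after their values were seen. Alternatives changed the background correction, the normalization, the signal source, the filter, the choice of probe and the arrays. Leaving out arrays 3 and 4 was chosen after seeing the data.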

Additional observations from a re-analysis of the deposited data

Results flagged for a closer look

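In 4 of 55 genes checked, 1 array's log2 ratio stood apart from the other arrays by Dixon's criterion, which chance alone gives in about 1 in 20 groups. IGMT2 had 2.53 on array 1. RCA, the green tissue marker that activates Rubisco, had 0.089 on array 2, from a probe saturated in vim1,2,3 on all 4 arrays. AT5G57230, the neighbour of CYP81F2, had -0.38 on array 2, and AAT1 (AT4G21120) had 2.05 on array 1.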

How the results depend on the processing

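The median ratio of the 10 genes kept its direction under all 13 alternatives. Of 130 single-gene ratios 128 moved by less than the gene's own SD over the 4 arrays. The exceptions were the IGMT3 ratios of 2.00 with the scanner's processed signals and 2.12 with the series matrix. Leaving out 1 array, or arrays 3 and 4, cannot move a mean by that SD, so those settings were bound to pass. The mean of CYP71A13 changed sign without array 2. Genes called higher numbered 666 of 20464, and 182 to 987 with 1 array left out (341, 987, 182 and 197 without arrays 1 to 4) and 53 without arrays 3 and 4. Genes called lower numbered 441, and 33 to 597 with 1 array left out (223, 597, 33 and 58 without arrays 1 to 4), 0 by limma without arrays 3 and 4 (1247 had an unadjusted p under 0.05), 878 with median centring, 813 with the scanner's processed signals and 673 with the series matrix. The last 3 settings put the median of all genes at -0.17, -0.14 and -0.11, against -0.052, and the share of higher among calls at 42.2%, 41.9% and 47.5%, against 60.2%. With median centring MYB51 was at 0.96 and 4 of the 10 genes passed the call rule. The indole synthesis median was -0.084 with the scanner's processed signals and 0.064 to 0.15 with 1 array left out, the regulator median was -0.39 without arrays 3 and 4, and the pollen and petal median was -1.69 there. The green tissue median was 0.13 with the mean of all probes and 0.30 without saturated probes, the root median -0.32 with no filter, and the seed median 1.06 with the series matrix; the causes were not tested. Of 12 other genes tested and named as called, 7, 1, 10 and 10 lost their call without arrays 1 to 4 and all 12 without arrays 3 and 4, a setting with fewer samples. Each ratio pairs the RNAs of an array, so the test on the 4 ratios was a paired one. The slide could not be used as a block because all 4 arrays shared it. The small number of arrays and dim probes such as that of IGMT3 limit these values.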
